A study of Homo sapiens with 12 samples.

Results

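The genes described here are 10 transcripts of the T cell receptor and its first signalling steps, measured in lines that come from B cells. They are the receptor constant genes TRAC, TRBC1 and TRBC2, the CD3 chain genes CD3D, CD3E, CD3G and CD247, the kinase genes LCK and ZAP70 and the adaptor gene LAT. The members were chosen by gene symbol, because LCK and TRAC had been seen to be present in these lines. The levels of LCK and TRAC therefore chose the set and are given as a description. The deposited tables held 60603 genes, and 8 of the 10 members were among the 17057 genes that passed the filter on low counts. CD3D and CD3G did not pass it, and CD3E and TRBC1 passed it through VAL alone.

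Messenger RNA was sequenced from OCI-LY1 and VAL, established human lines of diffuse large B-cell lymphoma, a cancer of mature B cells. The constructs in each line were wild-type BCL7A, a chromatin remodelling subunit, its splice-site mutant delta27-BCL7A, and the vector alone, with 2 independently transduced libraries in each of the 6 groups. All 6 groups shared the vector with its ZsGreen1 reporter, 3 cycles of infection at a multiplicity of 2 and a sort of reporter-positive cells, and both BCL7A forms were delivered as their short and long isoforms. OCI-LY1 was collected on day 10 after transduction and VAL on day 17, so line and day cannot be told apart.

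In T cells, the receptor's alpha and beta chains bind antigen but carry no signalling motif of their own. The CD3 chains and the zeta chain (CD247) carry the motifs, LCK phosphorylates them, ZAP70 docks on the phosphorylated chains, and LAT is the scaffold that ZAP70 phosphorylates next. B cells run a parallel relay with immunoglobulin as the receptor, CD79A and CD79B as the motif-bearing chains, LYN, BLK and FYN as SRC family kinases and SYK in the place of ZAP70. A functional receptor gene also needs its variable and joining segments recombined, whereas unrearranged constant genes can give germline transcripts.

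Gene counts per library lay between 21839547 and 24935893. The log2 levels of replicates correlated at 0.997 to 0.998 across genes. The wild-type BCL7A libraries of VAL stood furthest apart, with a chi-square over genes, divided by its degrees of freedom, of 7.5 where the other 5 groups gave 1.51 to 3.2. Levels are given in CPM, the counts scaled to a common library size. BCL7A in OCI-LY1 was at 577 CPM ± 1.06 (SD, n = 2) when the wild type was delivered and 581 ± 10.2 when the mutant was, above 156 ± 1.63 in the empty vector cells. The VAL values were 463 CPM ± 13.4 (SD, n = 2), 488 ± 3.77 and 287 ± 5.48. All 12 B cell markers had at least 10 counts in every library. Of 14 T cell markers, 12 stayed under 10 counts in every library, TRAT1 was at 0 in all 12, and the exceptions were CD3E, in VAL, and CD28. The summed level of the T cell markers was 0.804 to 1.94 CPM, against 3980 to 4800 CPM for the B cell markers. Natural killer cell markers summed to 2.65 to 7.46 CPM, with 8 of 12 under 10 counts in every library, and myeloid markers to 0.381 to 3.54 CPM, with 10 of 12 under it.

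TRBC1 and TRBC2 are near-identical copies of the beta chain constant gene, and their sequences bear on which copy a read can be given to. Both lie on the plus strand of GRCh38 chromosome 7, TRBC1 at 142791694 to 142793368 and TRBC2 at 142801041 to 142802748. Over the first coding exon of 387 bases the copies differed at 7 positions, an identity of 98.2%. The third coding block, of 107 bases, differed at 8 positions. Of the 50-base words of each transcript, 23.5% in TRBC1 and 23.6% in TRBC2 also occurred in the other copy. A part of the reads of either gene may therefore not have been assignable, and the counts of both are uncertain. This is a share of words and not of reads, so it sets no bound on that uncertainty. For the other members this share was 0, except for CD3G (0.7%) and LAT (40.9%). LAT lies on chromosome 16 at 28984826 to 28990783, plus strand, and shares exon sequence with AC109460.3 on the same strand, which itself had 28 to 48 counts per library in OCI-LY1 and 23 to 29 in VAL. Its counts are uncertain for that reason.

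The lines differed in how much of each receptor constant gene they transcribed. OCI-LY1 carried more TRAC than VAL, with TRBC2 at 6.67 to 7.33 CPM and hardly any TRBC1. VAL carried mostly TRBC2 with some counts on TRBC1 and little TRAC. TRAC, the alpha chain constant gene, lies on GRCh38 chromosome 14 at 22547506 to 22552154, plus strand.

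In OCI-LY1, TRAC was at 13.7 and 13.5 CPM with empty vector, 18.5 and 17.1 CPM with wild-type BCL7A and 12.7 and 13 CPM with delta27-BCL7A. Both wild-type libraries lay above the other 4, and the mutant lay just under the empty vector. In VAL, TRAC was at 1.5 and 2.29 CPM with empty vector, 3.91 and 2.86 CPM with wild-type BCL7A and 1.66 and 1.87 CPM with delta27-BCL7A. The order was the same at a lower level, both wild-type libraries again lying above the other 4, on 85 and 62 counts against 33 to 51. In a bulk sample, fewer cells with a transcript and less of it per cell cannot be told apart.

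TRAC rose with wild-type BCL7A in both lines. In OCI-LY1 its mean of 17.8 CPM ± 0.989 (SD, n = 2) stood over 13.6 ± 0.131 in empty vector cells, a log2 fold change of 0.39 (SE 0.10; edgeR quasi-likelihood adjusted p = 0.0099). Against delta27-BCL7A, at 12.9 ± 0.171, it was higher by 0.47 (SE 0.10; edgeR adjusted p = 0.00738). The mutant itself differed from empty vector by -0.08 (95% interval -0.30 to 0.14; edgeR adjusted p = 0.686), a difference not detectable at this depth.

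In VAL, TRAC rose with wild-type BCL7A from 1.90 CPM ± 0.557 (SD, n = 2) to 3.39 ± 0.737, 1.78-fold, or 0.83 on the log2 scale (SE 0.21; edgeR adjusted p = 0.0247). Against delta27-BCL7A, at 1.77 ± 0.150, it was 1.92-fold higher (log2 fold change 0.94, SE 0.21; edgeR adjusted p = 0.00305). The mutant differed from empty vector by -0.11 (95% interval -0.59 to 0.37; edgeR adjusted p = 0.872). The rise over empty vector was not shown to differ between the lines: the difference, VAL minus OCI-LY1, was 0.44 on the log2 scale (95% interval -0.03 to 0.91; edgeR adjusted p = 0.354).

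The TRAC calls rested on few libraries. In OCI-LY1 the call over empty vector was lost without empty vector replicate 1 (edgeR adjusted p = 0.0727) or 2 (0.0716) or wild-type replicate 1 (0.154), and the call over the mutant without wild-type replicate 1 (0.158) or mutant replicate 1 (0.0577) or 2 (0.126), while DESeq2 made neither (adjusted p = 0.105 and 0.109). In VAL the rise over empty vector was no longer called without empty vector replicate 1 (log2 fold change 0.57, edgeR adjusted p = 0.541) or wild-type replicate 1 (0.58, adjusted p = 0.304), with VAL fitted alone (adjusted p = 0.127) or with DESeq2 (adjusted p = 0.0547). The call over the mutant was lost without wild-type replicate 1 (0.70, adjusted p = 0.122) or mutant replicate 1 (0.86, adjusted p = 0.0723). The share of reads of low alignment quality differed between some of the constructs. In OCI-LY1 the wild-type libraries had 6.41% and 6.6%, between the empty vector values of 4.8% and 6.9%. The mutant libraries of OCI-LY1 were lower, at 3.92% and 3.01%. In VAL the wild-type libraries were the highest, at 6% and 6.37%. The empty vector (4.72% and 5.76%) and mutant libraries (3.87% and 5.66%) of VAL overlapped. The part of this share in the results was not tested.

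TRBC2, a beta chain constant gene, was high in VAL. It was at 96.5 and 96.1 CPM with empty vector, 111 and 112 CPM with wild-type BCL7A and 88.9 and 97.8 CPM with delta27-BCL7A. In OCI-LY1 all 6 libraries lay between 6.67 and 7.33 CPM. With empty vector it was 13.6-fold higher in VAL than in OCI-LY1 (log2 difference 3.76, SE 0.08; edgeR adjusted p = 1.74e-31). The ranges of the lines were far apart, in the opposite direction to those of TRAC.

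In VAL, TRBC2 rose with wild-type BCL7A by 0.21 on the log2 scale over empty vector (SE 0.05; edgeR adjusted p = 0.0344) and stood 0.26 above delta27-BCL7A (SE 0.05; edgeR adjusted p = 0.0021). Both wild-type libraries lay above the other 4. In OCI-LY1 the same difference from empty vector was -0.06 (95% interval -0.29 to 0.18; edgeR adjusted p = 0.837). The contrast between the lines, 0.27 (95% interval 0.01 to 0.53), was not called (edgeR adjusted p = 0.282). The VAL call over empty vector was lost without empty vector replicate 1 (adjusted p = 0.201) or 2 (0.141) or wild-type replicate 1 (0.0743), with VAL fitted alone (0.13) and with DESeq2 (0.193). The call over the mutant was lost with offsets for GC content and length, where the log2 fold change fell to 0.12 (adjusted p = 0.0945), and without mutant replicate 1 (0.20, adjusted p = 0.139).

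TRBC1, the other beta chain constant gene, had 0 and 0 counts with empty vector, 1 and 1 with wild-type BCL7A and 2 and 0 with delta27-BCL7A in OCI-LY1. In VAL it had 70 and 59, 64 and 63, and 81 and 58 counts in the same order. The lines did not overlap. Set against a floor of 3 counts summed over both OCI-LY1 libraries, TRBC1 with empty vector was 46.4-fold higher in VAL. The exact 95% interval of the ratio had a lower limit of 37.2, which covers counting error only. Having passed the filter through VAL, this gene had to differ between the lines. Within VAL the constructs overlapped, at 2.65 to 3.36 CPM. TRBC2 had 2120 to 2425 counts per library in VAL, and how many of its reads were counted for TRBC1 was not tested.

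**Figure D1:**
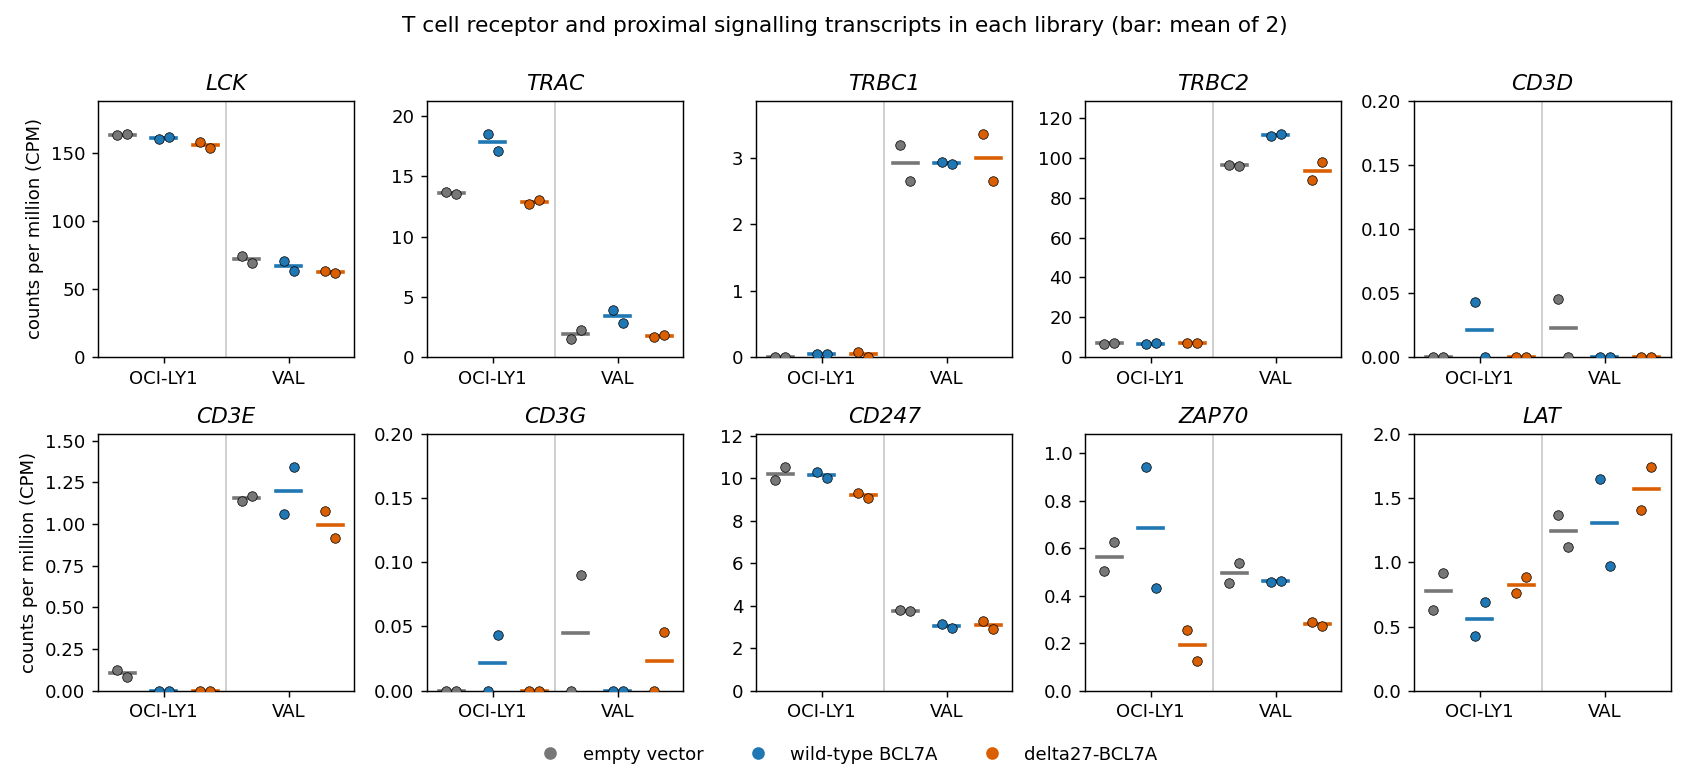
Levels of the members in each library, in CPM, by line and construct, with 1 point per library and 2 libraries per group. TRAC and LCK lie higher in OCI-LY1 (TRAC 12.7 to 18.5 CPM) than in VAL (1.5 to 3.91 CPM), TRBC2 lies higher in VAL (88.9 to 112 CPM), and CD3D and CD3G lie at or next to 0.

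The reads over the recombining segments were counted by the same annotation, in which each segment is a gene of its own. Joining segments of the second beta cluster, TRBJ2, which lies just before TRBC2, held 148 to 203 reads per library in VAL and 5 to 12 in OCI-LY1. The first cluster, TRBJ1, held 0 to 2 reads per library in either line. Variable segments of the beta locus, 68 genes of which 3 had any read, held 1 to 3 reads per library in VAL and 0 to 2 in OCI-LY1. The beta locus reads of VAL thus lay on the constant genes and the second joining cluster, with next to none on variable segments. A read that spans a joining segment and a constant gene may be counted for neither, depending on the counting mode, which is not given in the sources used here.

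The leading segments were TRBJ2-3, with 52 to 79 reads per library in VAL and 1 to 6 in OCI-LY1, and TRBJ2-2P, a joining segment pseudogene, with 46 to 60 and 0 to 3. They are shown because they held the most beta locus reads outside the constant genes. Both are given 5′ to 3′ from GENCODE 29 on GRCh38, plus strand, at chr7:142796847-142796895 for TRBJ2-3 and chr7:142796697-142796742 for TRBJ2-2P.
TRBJ2-3: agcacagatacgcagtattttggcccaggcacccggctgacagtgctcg
TRBJ2-2P: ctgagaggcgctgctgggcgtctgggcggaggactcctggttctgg

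Both segments passed the filter through VAL, so their difference between the lines was fixed by it. At the alpha locus the lines were the other way round. The alpha joining segments, 46 of 60 of them with a read, held 21 to 44 reads per library in OCI-LY1 and 1 to 7 in VAL. Their reads in OCI-LY1 were spread over many segments: TRAJ32, with the most, had 2 to 10 per library, and TRAJ12 had 2 to 7. Alpha variable segments held 1 to 3 reads per library in OCI-LY1 and 1 to 10 in VAL, where TRAV14DV4 alone had 1 to 8.

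TRDC, the delta chain constant gene, whose locus lies inside the alpha locus, had 29 to 47 counts per library in OCI-LY1 and 1 to 17 in VAL. It passed the filter through OCI-LY1, so no test of the line difference is given. The delta variable segment TRDV3 had 8 to 20 counts in OCI-LY1 and 0 to 2 in VAL. The gamma chain constant gene TRGC1 was at 0 counts in every library and TRGC2 had 1 count in all, while gamma variable segments held 18 to 29 reads per library in OCI-LY1 and 39 to 53 in VAL. None of the segment genes that passed the filter was called in a comparison of constructs within a line (edgeR).

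**Figure D2:**
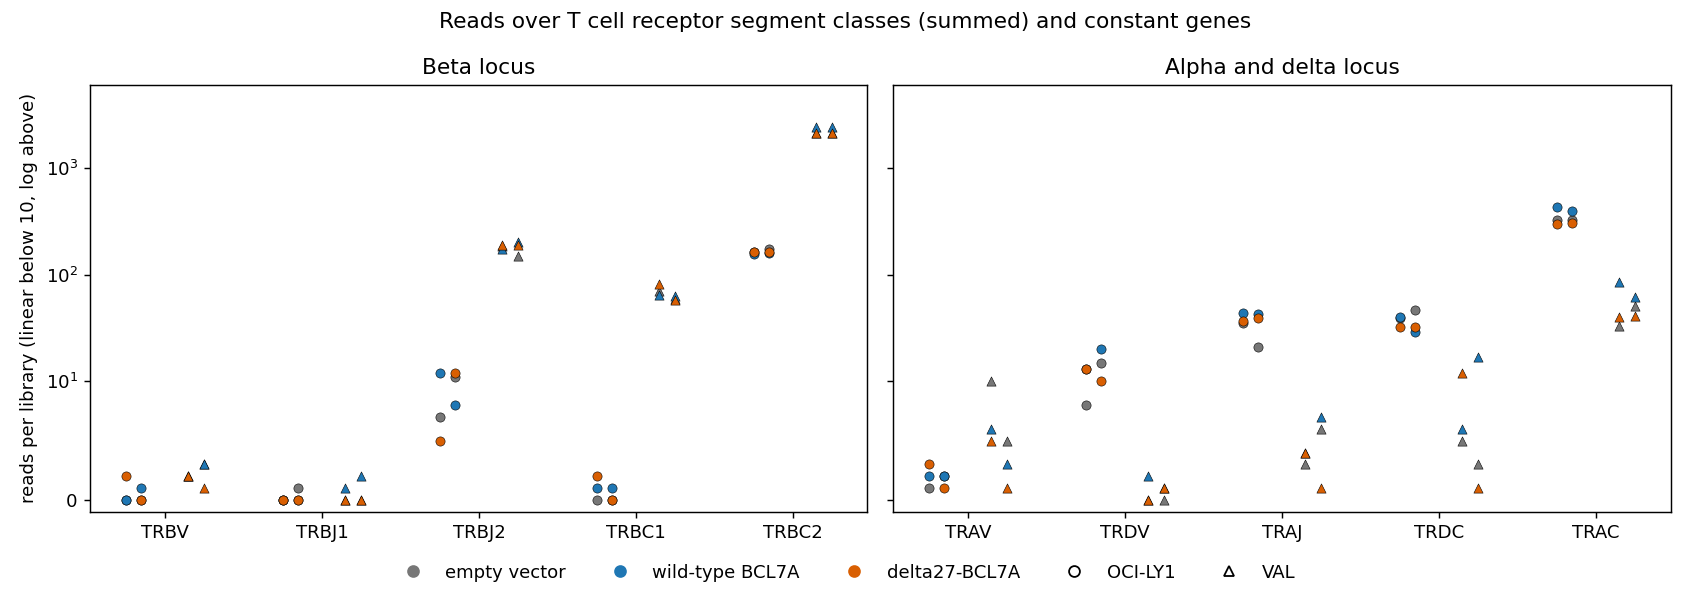
Reads per library over each class of T cell receptor gene, by line, on an axis that is linear below 10 and logarithmic above, with 1 point per library. Reads on TRBJ2 separate VAL (148 to 203) from OCI-LY1 (5 to 12), reads on alpha joining segments separate them the other way (1 to 7 against 21 to 44), and beta variable segments lie at 0 to 3 in both.

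The CD3 chains carry the receptor to the cell surface and signal for it. CD3D (chromosome 11, 118338954 to 118342744, minus strand) had 1 count in each of 2 libraries and 0 in the other 10. CD3G (118344344 to 118355161, plus strand) had 1 count in an OCI-LY1 library, 1 and 2 counts in libraries of VAL and 0 in the other 9. CD3E (118304545 to 118316175, plus strand) had 3 and 2 counts with empty vector and 0 with either BCL7A form in OCI-LY1, and 20 to 29 counts in every VAL library. The 3 CD3 genes, neighbours on chromosome 11, were thus near 0 apart from CD3E in VAL.

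With empty vector, CD3E had 51 counts in VAL against 5 in OCI-LY1, a ratio of 11 (exact 95% interval 4.42 to 35.3, counting error only). It passed the filter through VAL, so this difference was fixed by the filter. In VAL its level was 0.914 to 1.34 CPM, with overlapping constructs.

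CD247 (chromosome 1, 167430640 to 167518610, minus strand), the zeta chain, was the CD3-associated chain present in both lines. In OCI-LY1 it was at 9.89 and 10.5 CPM with empty vector, 10.3 and 10.0 CPM with wild-type BCL7A and 9.32 and 9.06 CPM with delta27-BCL7A. In VAL it was at 3.78 and 3.73, 3.13 and 2.96, and 3.28 and 2.92 CPM in the same order. The lines did not overlap, and with empty vector VAL was lower by 1.44 on the log2 scale (SE 0.13; edgeR adjusted p = 3.8e-12).

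Both BCL7A forms lay under the empty vector for CD247 in VAL, but neither difference was called. It was -0.30 with wild-type BCL7A (95% interval -0.64 to 0.04; edgeR adjusted p = 0.519) and -0.27 with the mutant (95% interval -0.61 to 0.06; edgeR adjusted p = 0.398). In OCI-LY1 the values were 0.00 and -0.15 (edgeR adjusted p = 1 and 0.39).

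LCK, the kinase that starts the relay, was the most abundant member in OCI-LY1. It lies on chromosome 1 at 32251239 to 32286165, plus strand. Its level was 163 and 164 CPM with empty vector, 160 and 162 CPM with wild-type BCL7A and 158 and 154 CPM with delta27-BCL7A in OCI-LY1. In VAL it was 74.7 and 69.0, 70.8 and 63.1, and 63.2 and 62.1 CPM. The lines did not overlap, and with empty vector LCK was 2.27-fold higher in OCI-LY1, given as a description.

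In VAL, LCK fell with delta27-BCL7A from 71.8 CPM ± 4.07 (SD, n = 2) to 62.7 ± 0.796, a log2 fold change of -0.20 (SE 0.06; edgeR adjusted p = 0.0429). The call was lost without empty vector replicate 1 (adjusted p = 0.39) or mutant replicate 1 (0.198) or 2 (0.23), with VAL fitted alone (0.129) and with offsets for GC content and length (0.0572). With wild-type BCL7A, LCK differed from empty vector by -0.10 in VAL (95% interval -0.22 to 0.02; edgeR adjusted p = 0.54) and by -0.02 in OCI-LY1 (95% interval -0.13 to 0.08; edgeR adjusted p = 0.86).

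ZAP70 (chromosome 2, 97713560 to 97739862, plus strand), the kinase that binds phosphorylated CD3 chains, stood on very few reads. In OCI-LY1 it had 12 and 15 counts with empty vector, 22 and 10 with wild-type BCL7A and 6 and 3 with delta27-BCL7A. In VAL it had 10 and 12, 10 and 10, and 7 and 6 counts. The mutant libraries were the lowest in both lines.

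In OCI-LY1, ZAP70 fell with delta27-BCL7A by 1.54 on the log2 scale from empty vector (SE 0.54; edgeR adjusted p = 0.0411) and was 1.83 higher with the wild type than with the mutant (SE 0.52; edgeR adjusted p = 0.0458). In VAL the mutant differed from empty vector by -0.80 (95% interval -1.87 to 0.26; edgeR adjusted p = 0.441), and the difference between the lines, 0.74, was not called (edgeR adjusted p = 0.772). The OCI-LY1 call over empty vector was lost without each of its 4 libraries in turn (edgeR adjusted p = 0.0558 to 0.331), with no filter (0.0665) and with offsets for GC content and length (0.0723). At a minimum count of 30 the gene was not tested, and DESeq2 gave it no adjusted p in either comparison, so it made neither call. The call over the mutant was lost without wild-type replicate 1 (log2 fold change 1.17, adjusted p = 0.576) or mutant replicate 1 (2.39, 0.071) or 2 (1.42, 0.49).

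LAT, the scaffold downstream of ZAP70, had 10 to 22 counts per library in OCI-LY1 and 21 to 38 in VAL. With empty vector it had 15 and 22 counts in OCI-LY1 and 30 and 25 in VAL, a log2 difference of 0.68 (SE 0.33; edgeR adjusted p = 0.066). No comparison of constructs called it in either line (edgeR adjusted p = 0.51 to 0.967).

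**Figure D3:**
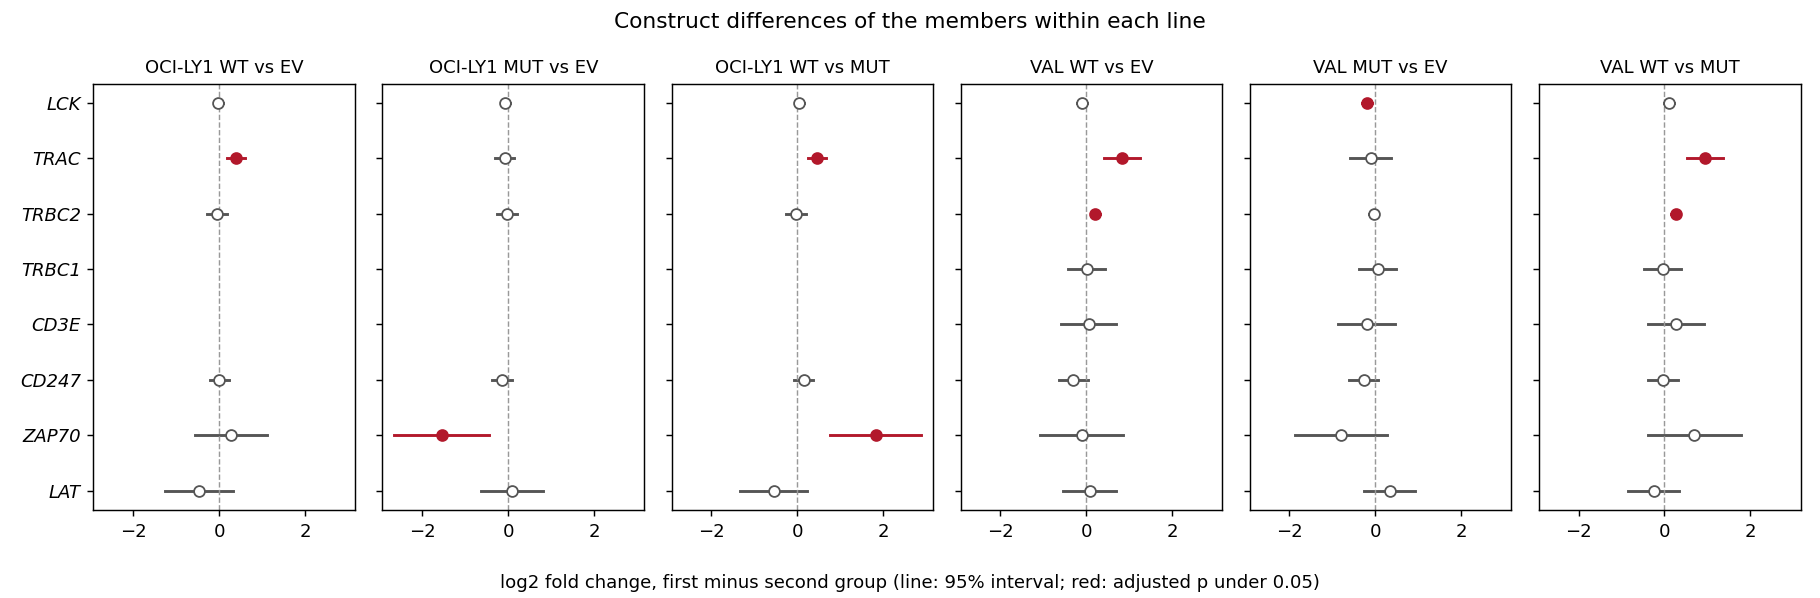
Fitted log2 fold changes of the tested members with 95% intervals, for each comparison of constructs within a line, filled where the edgeR adjusted p was under the threshold of 0.05. TRBC1 and CD3E are left out of OCI-LY1, where they were at or near 0. TRAC with wild-type BCL7A lies to the right of 0 against either other construct in both lines (0.39 to 0.94).

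Counted over the tested members, 1 of 8 was called for wild-type BCL7A against empty vector in OCI-LY1, where 11.4% of all genes tested were. It was 1 of 8 for delta27-BCL7A against empty vector (19.6% of all genes) and 2 of 8 for wild type against mutant (3.05%). In VAL it was 2 of 8 (1.62%), 1 of 8 (5.13%) and 2 of 8 (9.07%) for the same comparisons. The members' median log2 fold change was -0.01, -0.07 and 0.03 in OCI-LY1 and 0.03, -0.15 and 0.18 in VAL, beside -0.01, -0.03 and 0.00, and 0.00, -0.01 and 0.00, over all genes tested. The comparisons of one line share their libraries, so these counts are not independent of each other. In OCI-LY1 the 8 include TRBC1 (0 to 2 counts per library) and CD3E (0 to 3), whose fitted values there rest on a few reads. Both also enter the OCI-LY1 medians and the tests of construct effect between the lines, and tell little in either. Between the lines with empty vector 6 of 8 were called, beside 73.4% of all genes. That count includes LCK and TRAC, whose levels chose the set, and CD3E and TRBC1, which the filter passed through VAL, so nothing is read from it. For the differences between the lines in construct effect, 0 of 8 members were called in each of the 3 tests (edgeR), where 3.89%, 1.51% and 0.451% of all genes were for wild type against empty vector, mutant against empty vector and wild type against mutant.

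Levels of different genes can be set side by side only per length. Averaged over the 6 libraries of OCI-LY1, LCK stood at 47.9 CPM per kilobase of exon, above 94.8% of the genes tested, ahead of TRAC at 15.1 (80.1%) and TRBC2 at 9.16 (70%). CD247 followed at 2.44, LAT at 0.163 and ZAP70 at 0.0941 CPM per kilobase. Over the 6 OCI-LY1 libraries LAT (0.0965 to 0.208) and ZAP70 (0.0248 to 0.184) overlapped, whereas the genes above them did not overlap their neighbours.

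In VAL the order of the means over 6 libraries was led by TRBC2 at 132 CPM per kilobase, above 98.6% of the genes tested, then LCK at 20.1 (86%). TRBC1 at 3.88 and TRAC at 2.41 came next, then CD247 at 0.818, CD3E at 0.392, LAT at 0.311 and ZAP70 at 0.0809. Over the 6 VAL libraries TRBC1 (3.49 to 4.42) and TRAC (1.54 to 4.00) overlapped, and so did CD3E (0.321 to 0.471) and LAT (0.219 to 0.392). The top of the order thus differed between the lines, while CD3D and CD3G closed it in both. The place of LAT is uncertain in both lines, because it shares exon sequence with AC109460.3 and its full exon length was used.

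LCK belongs to the SRC family of kinases, several of which serve the B cell receptor. In OCI-LY1 its median over the 6 libraries, 48.2 CPM per kilobase (46.1 to 49.1), lay within the range of LYN (median 49.3, 40.2 to 53.0), the chief SRC family kinase of B cells, and above BLK, the B lymphoid kinase, at 15.4. In VAL, LCK at 19.8 lay below LYN at 77.9 and BLK at 44.7, and overlapped the range of FGR, whose median was 21.7. FYN, which T cells use beside LCK, was at 0.11 in OCI-LY1 and 2.23 in VAL. Other family members lay lower: SRC at 0.0825 and 2.45 and YES1 at 0.136 and 0.0552, with FGR at 0.279 in OCI-LY1.

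By these medians LYN, BLK, FYN, FGR and SRC lay higher in VAL, and LCK and YES1 lower. LYN rose in OCI-LY1 with wild-type BCL7A by 0.23 (edgeR adjusted p = 0.00125) and with the mutant by 0.32 (edgeR adjusted p = 1.13e-05). In VAL, SRC and FGR fell with the mutant by 0.38 and 0.26 (edgeR adjusted p = 0.0209 and 0.0213), as LCK did. Relative to the mutant, SRC was 0.60 and FGR 0.23 higher with the wild type (edgeR adjusted p = 9.99e-05 and 0.0334). LYN with the wild type lost its call without empty vector replicate 1 (edgeR adjusted p = 0.0972) or wild-type replicate 1 (0.0597). The fall of SRC was lost without each of its 4 libraries (0.0511 to 0.18), and that of FGR without empty vector replicate 1 (0.252) or mutant replicate 1 (0.204) or 2 (0.106), with VAL fitted alone (0.0711) and with DESeq2 (0.072). FGR over the mutant was lost without wild-type replicate 1 (0.10, 0.549) or mutant replicate 1 (0.226) or 2 (0.118), with VAL alone (0.0814), with the GC and length offsets (0.109) and with DESeq2 (0.134).

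**Figure D4:**
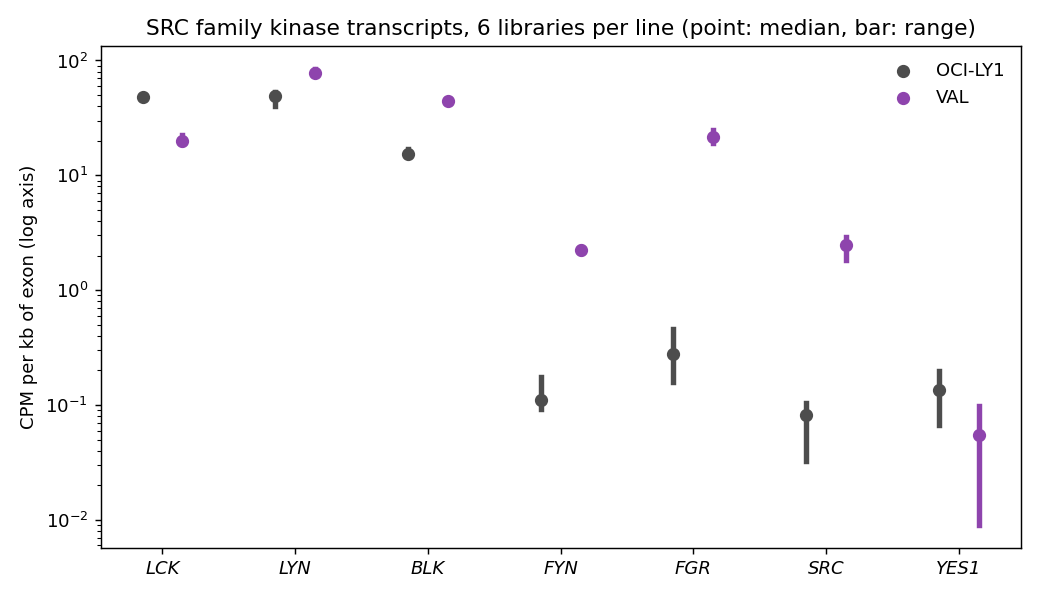
Levels of 7 SRC family kinases in CPM per kilobase of exon on a logarithmic axis, by line, with the median as a point and the range of 6 libraries as a bar. LCK (median 48.2) overlaps LYN (49.3) at the top of OCI-LY1, while LYN (77.9) and BLK (44.7) lead in VAL.

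Other genes of the pathway were taken by list. Of 18 T cell surface antigens 8 passed the filter. With empty vector as the reference, 0 were higher and 1 lower with wild-type BCL7A in OCI-LY1 and 1 higher and 0 lower in VAL, and with the mutant 0 were higher and 2 lower in each line. Of all genes tested, 11.4% and 1.62% were called with the wild type and 19.6% and 5.13% with the mutant, in OCI-LY1 and VAL. Their median log2 fold changes were 0.02 and -0.08 in OCI-LY1 and -0.17 and -0.19 in VAL, beside -0.01 and -0.03, and 0.00 and -0.01, over all genes. These medians include genes on very few reads in one line. CD6 had 0 to 2 and CD28 1 to 10 counts per library in VAL, and PDCD1 had 0 to 2 in OCI-LY1. No shift of the list is read from the medians. CD27, a receptor that B cells also carry, rose with wild-type BCL7A in VAL from 254 CPM ± 5.41 (SD, n = 2) to 315 ± 11.7 (log2 fold change 0.31, SE 0.05; edgeR adjusted p = 6.48e-05). SIT1, an adaptor that restrains receptor signals, fell with the mutant in VAL by 0.32 and in OCI-LY1 by 0.18 (edgeR adjusted p = 0.00466 and 0.0202). IL2RA, the interleukin receptor alpha chain, fell with wild-type BCL7A in OCI-LY1 by 0.25 (edgeR adjusted p = 0.0037) and with the mutant in VAL by 0.26 (SE 0.08; edgeR adjusted p = 0.0378). Its means lay under empty vector with either form in both lines. The CD27 rise kept its call under every alternative run. SIT1 in VAL lost its call without empty vector replicate 1 (edgeR adjusted p = 0.0922) or mutant replicate 2 (0.133), and in OCI-LY1 without empty vector replicate 1 (0.0854) or 2 (0.121) or mutant replicate 1 (0.172), with DESeq2 (0.1) and with offsets for GC content and length, where its log2 fold change was -0.02 (0.861). IL2RA in OCI-LY1 lost its call without empty vector replicate 1 (log2 fold change -0.21) or wild-type replicate 1 (-0.24). In VAL, IL2RA lost it without any one of the empty vector or mutant libraries (-0.25 to -0.30). There it was also lost with no filter (edgeR adjusted p = 0.0576), with VAL fitted alone (0.101) and with DESeq2 (0.0685).

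Several surface antigens marked one line, and these were chosen after their values were seen. IL7R, the receptor for a lymphocyte growth cytokine, was at 210 to 240 CPM in OCI-LY1 and 0.910 to 1.33 CPM in VAL. CD96 was at 93.0 to 105 and 0.502 to 1.24 CPM, and CD6 at 5.50 to 7.06 and 0 to 0.083 CPM. PDCD1, an inhibitory receptor, was at 0 to 0.0846 CPM in OCI-LY1 and 4.56 to 7.23 CPM in VAL. These genes were picked for that difference, so nothing is read from it. With empty vector, 73.4% of all genes tested were called between the lines. CD27, SIT1 and IL2RA, of the same list, were present in both lines. They were at 90.2 to 109, 68.9 to 81 and 52.6 to 64.7 CPM in OCI-LY1, and at 232 to 323, 26.5 to 36.3 and 18.1 to 22.3 CPM in VAL.

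Of 14 genes of T cell transcription factors and receptor assembly, 6 passed the filter. With wild-type BCL7A 4 were higher and 0 lower in OCI-LY1, and 1 was higher and 0 lower in VAL, beside 11.4% and 1.62% of all genes called in either direction, with a median log2 fold change of 0.33 and 0.06 against -0.01 and 0.00 over all genes. The mutant gave 1 higher in OCI-LY1 and 0 in VAL, beside 19.6% and 5.13% of all genes. RAG1, a subunit of the recombinase that joins receptor segments, was at 19.1 and 19.6 CPM with empty vector, 27.8 and 29.2 CPM with wild-type BCL7A and 21.6 and 24.3 CPM with the mutant in OCI-LY1. In VAL it was at 5.46 and 5.52, 7.95 and 10.2, and 5.69 and 6.67 CPM. The wild-type libraries lay above the other 4 in both lines.

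RAG1 rose with wild-type BCL7A by 0.56 in OCI-LY1 (SE 0.09; edgeR adjusted p = 3.06e-05) and by 0.72 in VAL (SE 0.13; edgeR adjusted p = 9.44e-04). Against the mutant it was higher by 0.32 and 0.56 (edgeR adjusted p = 0.0339 and 0.00458). In OCI-LY1 its partner RAG2 (0.41, SE 0.09), the thymocyte factor TOX (0.25, SE 0.07) and LEF1, which acts in Wnt signalling and early lymphocytes (0.15, SE 0.05), also rose over empty vector (edgeR adjusted p = 0.00166, 0.00957 and 0.0295). LEF1 rose there with the mutant as well, by 0.14 (SE 0.05; edgeR adjusted p = 0.0285). That call was lost without empty vector replicate 1 (log2 fold change 0.12) or 2 (0.17) or mutant replicate 2 (0.12). In VAL only RAG1 of this list was called with the wild type against empty vector. There RAG2 had a mean of 8.46 CPM with the wild type against 10.1 with empty vector. The VAL means of LEF1 were 195 against 205 CPM, and those of TOX 158 against 151 CPM. The RAG1 rise over empty vector kept its call under every alternative run in both lines. Its call over the mutant was lost in OCI-LY1 without each of the 4 libraries in turn (edgeR adjusted p = 0.0979 to 0.267) and with DESeq2 (0.215), and in VAL without wild-type replicate 2 (0.0875) or mutant replicate 1 (0.134). RAG2 lost its call without empty vector replicate 1 (0.27, adjusted p = 0.136), TOX without that library (0.16, 0.306) or wild-type replicate 1 (0.104) or 2 (0.0525), and LEF1 without each of its 4 libraries (0.0758 to 0.276).

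Of 36 signalling partners of the receptor, 31 passed the filter. Against empty vector, 6 were higher and 1 lower with wild-type BCL7A in OCI-LY1, 4 higher and 2 lower with the mutant, and in VAL 2 higher and 0 lower, and 3 higher and 1 lower. The shares of all genes called in those comparisons were 11.4%, 19.6%, 1.62% and 5.13%. The list's medians were 0.03, 0.01, 0.01 and 0.02 in that order, beside -0.01, -0.03, 0.00 and -0.01 over all genes. PTPN6, a phosphatase that restrains antigen receptors, rose with wild-type BCL7A in VAL (log2 fold change 0.44, SE 0.06; edgeR adjusted p = 2.25e-05) and fell with the mutant by 0.24 (edgeR adjusted p = 0.0193). UBASH3B, a phosphatase that acts on ZAP70 and SYK, rose in OCI-LY1 with the wild type by 0.54 and with the mutant by 0.48 (edgeR adjusted p = 2.25e-06 and 5.23e-06). PAG1, a membrane adaptor that recruits the SRC family inhibitor CSK, rose there too, by 0.32 and 0.43 (edgeR adjusted p = 3.83e-04 and 2.73e-06). The fall of PTPN6 was lost without each of its 4 libraries (edgeR adjusted p = 0.0663 to 0.224) and with VAL alone (0.0568). The other 5 of these calls held under every alternative run.

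SKAP1, an adaptor of T cell adhesion, had 26 and 31 counts with empty vector, 71 and 50 with wild-type BCL7A and 25 and 20 with the mutant in VAL. In OCI-LY1 it had 1 count in all. It rose with wild-type BCL7A in VAL by 1.11 (SE 0.27; edgeR adjusted p = 0.02) and was 1.51 above the mutant (SE 0.28; edgeR adjusted p = 4.8e-04). The first call was lost without empty vector replicate 1 (1.00, adjusted p = 0.267) or 2 (0.0638) or wild-type replicate 1 (0.83, adjusted p = 0.252), and the second held under every alternative that tested the gene.

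All 18 B cell receptor counterparts passed the filter. In VAL, 1 was higher and 0 lower with wild-type BCL7A and 0 higher and 6 lower with the mutant against empty vector, and 7 were higher with the wild type than with the mutant, where 1.62%, 5.13% and 9.07% of all genes were called. In OCI-LY1 the wild type gave 2 higher and 1 lower, and the mutant 2 higher and 2 lower, beside 11.4% and 19.6% of all genes. The medians against empty vector lay between -0.09 and 0.03, and those of all genes between -0.03 and 0.00. PRKCB, the protein kinase C of the B cell receptor, rose with wild-type BCL7A in VAL by 0.63 (SE 0.08; edgeR adjusted p = 1.05e-05). LAT2, which serves in B cells in the place of LAT, fell with the mutant by 0.28 (edgeR adjusted p = 0.00199). LAT2 lost its call without empty vector replicate 1 (adjusted p = 0.0627) or mutant replicate 2 (0.0506).

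The genes whose levels moved most like those of LCK and TRAC were sought over the 12 libraries after subtraction of each line's mean, among protein-coding genes tested. For LCK these were ACAT2 and FDFT1, enzymes of sterol metabolism (Pearson's r 0.96 and 0.95, Spearman's rho 0.97 and 0.96), and HDAC1, a histone deacetylase (0.96 and 0.96). HDAC1 lies next to LCK on chromosome 1, at 32292086 to 32333635 on the same strand, and fell from 447 to 418 CPM between empty vector and mutant means in VAL. For TRAC they were PPP1CA, a phosphatase catalytic subunit (0.95 and 0.93), ANAPC15, a subunit of the anaphase-promoting complex (0.93 and 0.91), and SPIB, a B cell transcription factor (0.92 and 0.92). SPIB was at 76.1 CPM with empty vector, 91.4 CPM with the wild type and 72.0 CPM with the mutant in VAL. These are the highest of 12243 and 12244 correlations, and 1.27% of genes for LCK and 0.915% for TRAC exceeded 0.8. The libraries share their depth, line and construct groups, so the values describe these samples only.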

How the data were processed

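The values deposited by the authors are unnormalized gene counts, whole numbers listed by Ensembl identifier in a separate table for each library. The submitters' processing notes name HTSeq 0.11.2, STAR 2.6.1b, DESeq2, edgeR, R 3.6.1 and the builds hg38 and GRCh38, and the labels name a stranded kit for polyadenylated RNA. The annotation release and the strand setting of the counting are not given in the sources used here, so reads of antisense or overlapping genes cannot be told apart. Of 60603 genes, 60306 had a symbol in the reference table and 58528 matched GENCODE 29 by identifier without version, which gave positions, exon lengths and the printed sequences. Lines that count reads given to no gene were left out of library sizes (they held 23.3% to 29.4% of all counts).

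A robust quasi-likelihood model of edgeR 4.0.16 (R 4.3.3), with 6 group means, was fitted to the 12 libraries after TMM scaling and a filter at a minimum count of 10, which left 17057 genes. Residual degrees of freedom were 6, or 35.2 in the median once genes shared information, and the biological coefficient of variation was 3.7%. For each of 10 contrasts, two-sided p-values were adjusted by Benjamini-Hochberg across every gene tested, and called at 0.05. With 2 libraries a group, said to come from independent transductions, p-values measure the spread between these libraries. Exact 95% intervals of count ratios and the floor of 3 counts cover counting error only. The method was tested on simulated data.

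All members were named. From each other list the text names up to 4 genes with the smallest adjusted p, the SRC family kinases and leading segments of a locus. Some listed genes and sequences are not reported here. The members and lists were chosen with earlier results of these data known. Replicate numbers did not pair the libraries. Alternatives were RLE scaling, DESeq2 1.42.0, no filter, a minimum count of 30, each line alone, the replicate number as a block, offsets for GC content and length (GC known for 98.9% of genes tested) and leaving out each library in turn.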

Additional observations from a re-analysis of the deposited data

How the results depend on the processing

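Over members, comparisons and alternatives, 809 results kept their side of the threshold, 35 lost a call, 3 gained one and 0 changed direction while called. Called results of other named genes, which were put through the same alternatives after the data were seen, kept their side in 492 cases and lost it in 130, and CD79B, lower with the mutant in OCI-LY1 by a log2 fold change of -0.14, turned to 0.04 with offsets for GC content and length. CD3D and CD3G, at 0 to 2 counts per library, were too low to test, and ZAP70 stood on 3 to 22 counts. The number of members called for wild-type BCL7A against empty vector in OCI-LY1, 1, was 0 with DESeq2 and 0 to 1 without single libraries. For the mutant, also 1, it was 0 with no filter, a minimum count of 30, offsets for GC content and length, DESeq2 and without any library of its groups. For wild type against mutant, 2, it was 1 at a minimum count of 30, 0 with DESeq2 and 0 to 2 without single libraries. In VAL the 2 members of wild type against empty vector became 0 with the line fitted alone and with DESeq2 and 0 to 2 without single libraries, the 1 of the mutant became 0 with the line alone and with the offsets and 0 to 1, and the 2 of wild type against mutant became 1 with the offsets and 0 to 3. Without single libraries 6 to 7 members differed between the lines and 0 in construct effect between them. With the replicate number as a block, whose same-numbered libraries deviated with correlations of -0.07 to 0.07, the counts for constructs were as without it, and LAT differed between the lines (log2 difference 1.03, edgeR adjusted p = 0.0176), as it did without OCI-LY1 empty vector replicate 2 (0.97, 0.047). LCK in VAL was called for wild type against mutant without wild-type replicate 2 (0.19, 0.0343).

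Counts over all genes moved more. In OCI-LY1 the 1951 genes of wild type against empty vector were 1170 with DESeq2 and 744 to 1178 without single libraries, the 3338 of the mutant 1265 to 2964, and the 521 of wild type against mutant 328 with DESeq2, 1086 with the line alone and 75 to 517. In VAL the 276 genes of wild type against empty vector were 146 with the line alone, 495 with the offsets, 159 with DESeq2 and 112 to 497, the 875 of the mutant 321, 1352 with the offsets and 145 to 517, and the 1547 of wild type against mutant 907 with the line alone, 1007 with DESeq2 and 438 to 2417. Differences in construct effect between the lines were 663 (299 to 1591), 258 (24 to 578, and 400 with no filter) and 77 (23 to 631, 144 with no filter and 50 with DESeq2). The offsets could not be used for contrasts between the lines.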
